A study of Mus musculus with 10 samples.

Results

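The genes described here encode proteins of the cytosolic ribosome or paralogs of these with like symbols. They were followed in the aortic arch of mice labelled ApoE-/-,MyD88-/- (double-null) and of mice labelled ApoE-/- (apoE-null). A gene was a member where the annotated symbol of its probe began with Rpl or Rps and a digit, or was Rplp0, Rplp1, Rplp2 or Rpsa, with the S6 kinases left out. The array held 70 such genes, each with 1 probe, among 11130 genes with a symbol of their own. Of these, 58 members had enough values to be tested, 36 of the large and 22 of the small subunit by symbol, among 4299 genes tested. Of the 58, 54 were core ribosomal protein genes, and Rpl7l1, Rpl22l1, Rpl36al and Rps27l were paralogs with like symbols. A further 3 probes annotated to a ribosomal protein or ribosomal pseudogene symbol together with other genes were not used.

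Both genotypes lacked apolipoprotein E, a lipoprotein ligand whose loss raises plasma cholesterol and produces atherosclerotic plaques. The double-null mice also lacked MyD88, the adaptor of most Toll-like receptors and of the interleukin-1 receptor family. Each two-colour array carried RNA of 1 mouse of each genotype, and 5 mouse pairs were hybridised in both channel orientations, so 10 arrays gave 5 replicates. The mice of pair 1 were females and those of pairs 2, 3 and 4 males, while in pair 5 the double-null mouse was male and the apoE-null mouse female. In pair 1 the genotypes of its mouse numbers are swapped between the arrays, and the genotype labels were followed. By mouse number alone the 2 arrays of that pair had the same channel order, so its channel swap rests on the genotype labels. Without that pair, as with it, 0 members passed the test described below. A high fat diet of 8 weeks was stated for 8 of the arrays, and the other arrays held mice that these 8 also held. Ages and strain background were not given in the labels used here, and the comparison asks how arterial transcripts of apoE-null mice differ when MyD88 is absent.

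A ribosome joins a small subunit, which reads the messenger RNA, to a large subunit, which forms the peptide bond, and each holds its own set of proteins around ribosomal RNA. Most of these proteins are made in equal numbers, from messenger RNAs that are among the most abundant in a cell and that usually begin with a run of pyrimidines, the 5′ terminal oligopyrimidine tract, through which mTOR signalling controls their translation. In plaques, cells that take up lipid, divide or secrete matrix all draw on this machinery. Several ribosomal proteins also act away from the ribosome, for example by binding Mdm2, the inhibitor of the tumour suppressor Trp53.

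Promoter sequences are shown for 6 members, because the pyrimidine tract described above is defined at the start of transcription. They were chosen after the values were seen, from members with a single RefSeq promoter entry. Rps25, Rpl37a and Rps26 had a high difference of mouse pair 2 minus pair 4, and Rpl7l1, Rpl28 and Rplp2 a low one. These are not the 3 highest and 3 lowest of all members. Rps14 (1.22) lay above Rps26 (1.00), and Rpl8 (-0.52) lay below Rplp2 (-0.48). Each line gives 30 bases before and 20 bases from the start of the gene, 5′ to 3′ on the strand of the gene, from RefSeq (GRCm38.p6). Capitals mark the longest run of C and T.
Rps25: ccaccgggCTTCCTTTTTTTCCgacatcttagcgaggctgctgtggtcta
Rpl37a: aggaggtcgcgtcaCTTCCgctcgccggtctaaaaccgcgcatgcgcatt
Rps26: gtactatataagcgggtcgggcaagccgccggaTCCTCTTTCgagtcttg
Rpl7l1: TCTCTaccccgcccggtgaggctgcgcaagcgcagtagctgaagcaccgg
Rpl28: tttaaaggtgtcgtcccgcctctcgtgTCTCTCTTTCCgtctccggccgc
Rplp2: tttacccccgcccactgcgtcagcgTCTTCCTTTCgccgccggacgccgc
These windows lie at chr9:44407684-44407733 on the plus strand for Rps25, chr1:72711230-72711279 (plus) for Rpl37a and chr10:128626487-128626536 (minus) for Rps26. Those of Rpl7l1, Rpl28 and Rplp2 lie at chr17:46782637-46782686 (minus), chr7:4792935-4792984 (plus) and chr7:141447621-141447670 (plus).

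The runs were 14 bases long in Rps25, 5 in Rpl37a, 9 in Rps26, 5 in Rpl7l1, 11 in Rpl28 and 10 in Rplp2. Long and short runs occurred on both sides of the comparison between pairs. These genes were picked by the difference between pairs, and a link of run length to it was not tested. Counted from the annotated start, the runs began at base -22, -16, 4, -30, -3 and -5 in the same order. Those of Rps25, Rpl37a and Rpl7l1 ended before the annotated start, and that of Rps26 began after it. Whether transcription begins at the annotated base was not tested, so no run is named a tract here. Runs anywhere in the window are counted below. RefSeq promoters were found for 51 of the 58 tested members, 58 promoters in all, and Rpl29 and Rplp1 were not among them. A run of at least 8 pyrimidines in this window was present in 44.8% of the members' promoters and in 20.2% of 32851 promoters in the table. CTTTCC or CTTTTCC, searched in the same window on the strand of the gene, was present in 19% and 3.01%. CCGGAAG, the core of sites for ETS family factors, occurred on either strand within the 300 bases of a promoter in 37.9% of the members' promoters and 8.86% of all promoters. TATAAA, searched on the strand of the gene over the same 300 bases, was present in 8.62% and 8.32%. A match is a description of the letters only, and overlapping motifs were each counted.

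Member probes were read far more often than other probes. Of the 70, 52 (74.3%) had a value on all 10 arrays, against 26.0% of the 13872 probes on the array, and 7 (10%) had none, against 41.9%. The members with no value on any array were Rpl10a, Rpl14, Rpl3, Rpl3l, Rpl7a, Rps20 and Rps21, and those with values on 1 to 5 arrays were Rpl30, Rpl35a, Rpl32, Rpl39l and Rps4l. These 12 were not tested. Nothing in the labels says why a cell is blank, so a blank cannot be read as low expression.

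Across the series, arrays gave 4581 to 7057 values each, and array means lay within 0.005 of 0 on the log2 scale, so that every ratio below is relative to the other probes of its array. Ratios are given as double-null over apoE-null. As a check of the labels, Myd88 read -0.90 ± 0.22 on the log2 scale (SD, n = 5, limma adjusted p = 0.0269), below 0 on 10 of 10 arrays, although the place of its probe relative to the disruption is unknown here. In the fit over all genes 35 of 4299 passed an adjusted p of 0.05, 27 higher (0.628%) and 8 lower (0.186%). That count was 6, 1, 0, 0 and 17 when pairs 1 to 5 were left out in turn. The direction of these calls also varied: 12 were higher and 17 lower in an array-level fit with the pair as a replicate block, 9 and 20 on the channel 1 arrays alone, 90 and 9 on the channel 2 arrays alone, 15 and 18 in the male pairs, and 0 and 3 without genes that had a channel effect.

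No ribosomal protein gene passed the test in either direction, 0 of 58 against 0.814% of all genes tested. The smallest adjusted p of a member was 0.327, for Rpl29 (limma with Benjamini-Hochberg adjustment over 4299 genes). At an unadjusted p under 0.05 there was 1 member (1.72%), against 9.47% of all genes. The mean log2 ratios of members ran from -0.30 (Rpl22l1) to 0.36 (Rpl29), with a median of -0.06, against a median of -0.04 over all genes. The members lay close together: the SD over genes of the mean ratio was 0.12, against 0.27 over all genes, and 3 members (5.17%) had a mean beyond 0.25 in size, against 25.4%.

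The precision set how large a difference could remain. The median SD of a member over pairs was 0.22, against 0.30 over all genes, and the median distance from the mean to the end of its 95% interval was 0.28, against 0.33. For 58 of 58 members the 95% interval of the mean lay within a 2-fold change either way, against 93.1% of all genes. For 54 members (93.1%) it lay within 1.5-fold, against 67.5%. An interval of this kind limits the size of a difference and does not show that the genotypes were equal. In whole tissue, fewer cells of a type and less RNA per cell cannot be told apart.

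**Figure D1:**
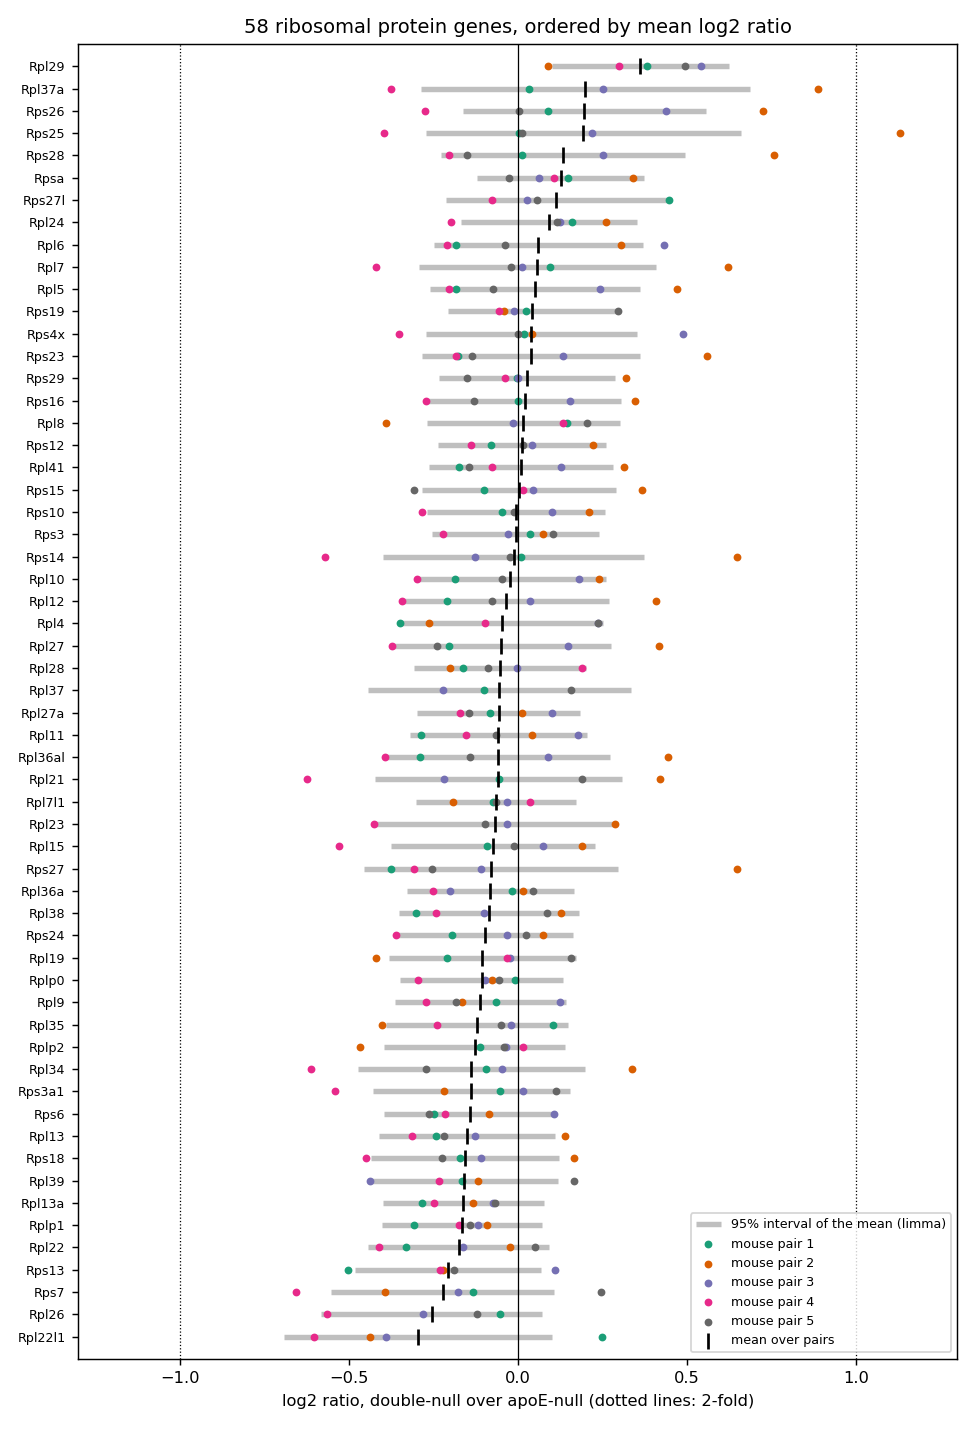
Log2 ratios of 58 ribosomal protein genes (horizontal axis, double-null over apoE-null), 1 row a gene, ordered by mean; coloured points are mouse pairs, black ticks the means and grey bars the 95% intervals from limma. Every interval lies inside the dotted 2-fold lines, the interval of Rpl29 (0.10 to 0.62) is the one that does not cross 0, and pair 2 and pair 4 often hold the opposite ends of a row.

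Rpl29, a large subunit protein also known as a heparin-binding protein of the cell surface, had the highest mean. Its log2 ratios in pairs 1 to 5 were 0.38, 0.09, 0.54, 0.30 and 0.50. All pairs were above 0, as were 9 of 10 arrays; the exception, at -0.10, was an array of pair 2. The mean was 0.36 ± 0.18 (SD, n = 5, 95% interval 0.10 to 0.62), with an unadjusted p of 0.0127 in limma and an adjusted p of 0.327. The mean over arrays with the double-null RNA in channel 1 was 0.50 and in channel 2 0.22. It was the 1 member among 52 with 5 pair values that lay above 0 in all 5 pairs (1.92%, against 4.32% of 3192 genes).

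The acidic stalk of the large subunit recruits the elongation factors and is built from Rplp0, Rplp1 and Rplp2. Rplp1 had log2 ratios of -0.31, -0.09, -0.12, -0.17 and -0.14 in pairs 1 to 5, a mean of -0.17 ± 0.09 (SD, n = 5). It was below 0 in every pair and above 0 on 1 of 10 arrays, and its adjusted p was 0.601 (limma). Rplp0 read -0.01, -0.08, -0.10, -0.30 and -0.05, a mean of -0.11 ± 0.11 (adjusted p = 0.726). These stalk genes, with Rpl13a, were the 3 members below 0 in all 5 pairs (5.77%, against 6.42% of all genes with 5 pair values). Rplp2 read -0.11, -0.47, -0.03, 0.02 and -0.04, so its mean of -0.13 ± 0.20 leaned on pair 2.

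Rpl13a, which in interferon-treated myeloid cells leaves the ribosome to silence inflammatory transcripts, read -0.28, -0.13, -0.07, -0.25 and -0.07 (mean -0.16 ± 0.10, SD, n = 5, adjusted p = 0.615). On single arrays it was above 0 on 2 of 10. Rpl7l1, Rplp1, Rpl13a, Rplp0 and Rpl27a had the smallest SDs of the members with 5 pair values, between 0.08 and 0.11. Their means ran from -0.17 to -0.06.

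Among the other large subunit genes with 5 pair values, the highest means after Rpl29 belonged to Rpl24, Rpl6, Rpl7 and Rpl5 (0.09, 0.06, 0.06 and 0.05). Rpl37a, with 4 pair values, had a mean of 0.20 ± 0.53. Rpl5, which with Rpl11 binds Mdm2 as part of a particle with ribosomal RNA, read -0.18, 0.47, 0.24, -0.20 and -0.07, a spread of 0.30 (SD) around a mean near 0. Rpl11 itself had a mean of -0.06 ± 0.18. With 5 pair values, the lowest means belonged to Rpl22, Rpl13a, Rplp1, Rpl39, Rpl13 and Rpl34 (-0.17, -0.16, -0.17, -0.16, -0.15 and -0.14). Rpl22, a protein needed for the development of T cells, read -0.33, -0.02, -0.16, -0.41 and 0.05, with an SD of 0.20. Below these lay 2 genes with 4 pair values, Rpl22l1 (-0.30 ± 0.37) and Rpl26. Rpl26, chosen after its values were seen, was below 0 in all 4 of its pairs, with a mean of -0.25 ± 0.23 (SD, n = 4, adjusted p = 0.579). The median over the large subunit was -0.06, with 8 genes above and 28 below 0 (77.8% below, against 58.3% of all genes).

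Among the small subunit genes with 5 pair values the highest means were those of Rps26, Rps25, Rps28, Rpsa and Rps19 (0.20, 0.19, 0.13, 0.13 and 0.04), and Rps27l, with 4, had a mean of 0.11. Rps25, a protein used by several viral and cellular internal ribosome entry sites, had the largest spread of any member with 5 pair values. It read 0.00, 1.13, 0.22, -0.40 and 0.01 in pairs 1 to 5 (SD 0.57), so its mean of 0.19 came mainly from pair 2, where both arrays were high at 0.72 and 1.54. Rps26, a protein near the messenger RNA exit, read 0.09, 0.73, 0.44, -0.27 and 0.00, and Rps28 read 0.01, 0.76, 0.25, -0.20 and -0.15. Both were highest in pair 2 and lowest in pair 4. Rpsa, which is also the precursor of the laminin receptor, was steadier at 0.15, 0.34, 0.06, 0.11 and -0.03 (mean 0.13 ± 0.14, SD, n = 5) and was above 0 on 8 of 10 arrays. Rps19, a gene mutated in Diamond-Blackfan anaemia, read 0.02, -0.04, -0.01, -0.05 and 0.30.

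The lowest small subunit means were those of Rps7, Rps13, Rps18, Rps6 and Rps3a1 (-0.22, -0.21, -0.16, -0.14 and -0.14). Rps7, another ligand of Mdm2, read -0.13, -0.39, -0.18, -0.66 and 0.25, below 0 in 4 pairs and above in pair 5. Rps13 read -0.50, -0.22, 0.11, -0.23 and -0.19. Rps6, the substrate of the S6 kinases, read -0.25, -0.08, 0.11, -0.22 and -0.26, a mean of -0.14 ± 0.15 (SD, n = 5, adjusted p = 0.668 in limma). The median over the small subunit was 0.01, with 12 genes above and 10 below 0 (45.5% below, against 58.3% of all genes). The difference between the subunits was not tested, and their ranges overlapped almost entirely, from -0.30 to 0.36 for the large and from -0.22 to 0.20 for the small subunit.

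The members' sign differed from mouse pair to mouse pair. The median log2 ratio of the members in pairs 1 to 5 was -0.09, 0.14, 0.01, -0.25 and -0.04, against -0.08, -0.03, -0.00, -0.04 and -0.04 over all genes. In pair 2, 36 of 55 members (65.5%) lay above 0, against 46.6% of all genes. In pair 4, 50 of 57 members (87.7%) lay below 0, against 55.2%. Over the mean of all pairs 20 members lay above and 38 below 0 (65.5% below, against 58.3% of all genes). Without pair 2 the split was 10 above and 48 below, and without pair 4 it was 29 and 29.

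These pair medians recurred on the partner arrays, which held RNA of the same mice, in opposite channels by the genotype labels. In pair 2 the members' medians were 0.14 where channel 1 held the double-null RNA and 0.17 on the other array, and in pair 4 they were -0.25 and -0.20. In pairs 1 and 5 the partner medians also shared a sign, at -0.08 and -0.08 and at -0.01 and -0.05, whereas in pair 3 they were -0.04 and 0.08. Both arrays read above 0 for 29 of 55 members in pair 2 (52.7%, against 29.9% of all genes). Both read below 0 for 43 of 57 members in pair 4 (75.4%, against 36.3%). The 2 arrays of a pair had opposite signs for 36 of 57 members in pair 1, 35 of 58 in pair 3 and 30 of 56 in pair 5, but for 12 of 55 in pair 2 and 10 of 57 in pair 4. Over all genes the share of opposite signs was 33.6%, 32.9%, 51.0%, 36.5% and 37.5% in pairs 1 to 5.

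**Figure D2:**
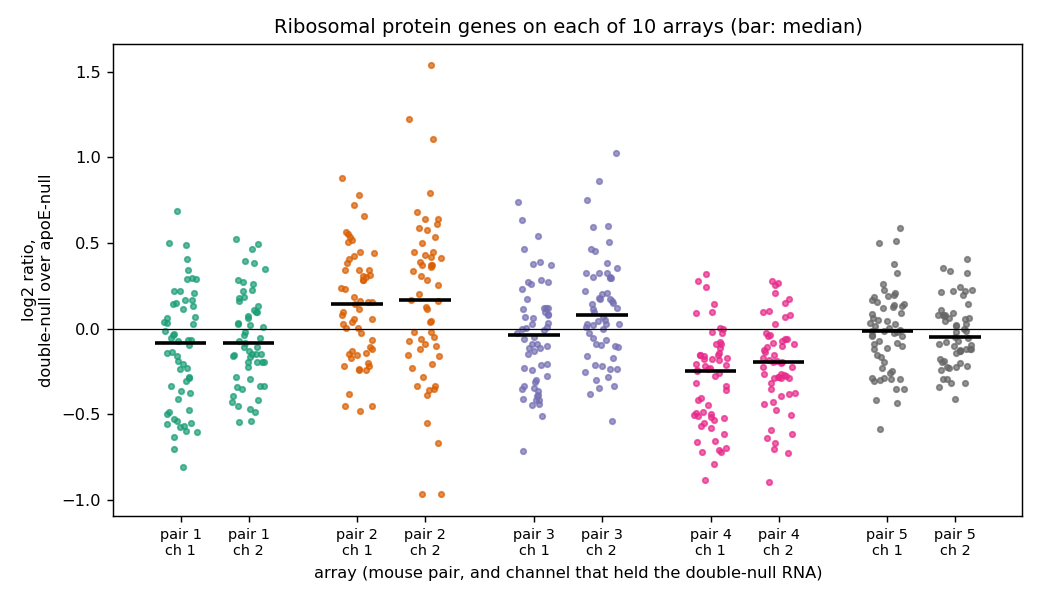
Log2 ratios (vertical axis, double-null over apoE-null) of the tested ribosomal protein genes on each of the 10 arrays, named by mouse pair and by the channel that held the double-null RNA; points are genes and bars the array medians. The medians of pair 2 (0.14 and 0.17) are the highest and those of pair 4 (-0.25 and -0.20) the lowest, on both arrays of each pair.

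Within pair 2 the members differed among themselves more than within any other pair. Their SD over genes was 0.36 in pair 2, against 0.18, 0.19, 0.21 and 0.16 in pairs 1, 3, 4 and 5. Over all genes the SD was larger in every pair, at 0.64, 0.46, 0.35, 0.38 and 0.42 in pairs 1 to 5. Above 0.5 in pair 2 lay 8 of 55 members, against 379 of 3653 genes over all genes tested. The highest members were Rps25 (1.13), Rpl37a (0.89), Rps28 (0.76) and Rps26 (0.73). At the other end stood Rplp2 (-0.47), Rpl22l1 (-0.44) and Rpl19 (-0.42). In pair 4, 8 of 57 members lay below -0.5, against 276 of 4092 genes over all genes tested. The lowest members were Rps7 (-0.66), Rpl21 (-0.62) and Rpl34 (-0.61), and the highest were Rpl29 (0.30) and Rpl28 (0.19). Among members with 5 pair values, Rps14, Rps27 and Rpl21 were next to Rps25 in spread: Rps14 read 0.01, 0.65, -0.13, -0.57 and -0.02, Rps27 read -0.38, 0.65, -0.11, -0.31 and -0.25, and Rpl21 read -0.06, 0.42, -0.22, -0.62 and 0.19. Rpl19 and Rpl28 were named here after their values were seen.

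The order of the members recurred between partner arrays only in part. Across members Pearson's r between the 2 arrays of a pair was -0.36 (n = 57), 0.55 (n = 55), -0.23 (n = 58), 0.17 (n = 57) and 0.04 (n = 56) in pairs 1 to 5, against 0.56, 0.32, 0.07, 0.24 and 0.43 across all genes. Partner arrays share their mice, and genes are not independent replicates, so these values only describe the arrays. Between different pairs, the 10 values of r across members ran from -0.29 (pairs 2 and 5) to 0.40 (pairs 1 and 5), with -0.23 for pairs 2 and 4. Across all genes they ran from -0.16 (pairs 3 and 5) to 0.43 (pairs 1 and 4), with 0.17 for pairs 2 and 4.

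**Figure D3:**
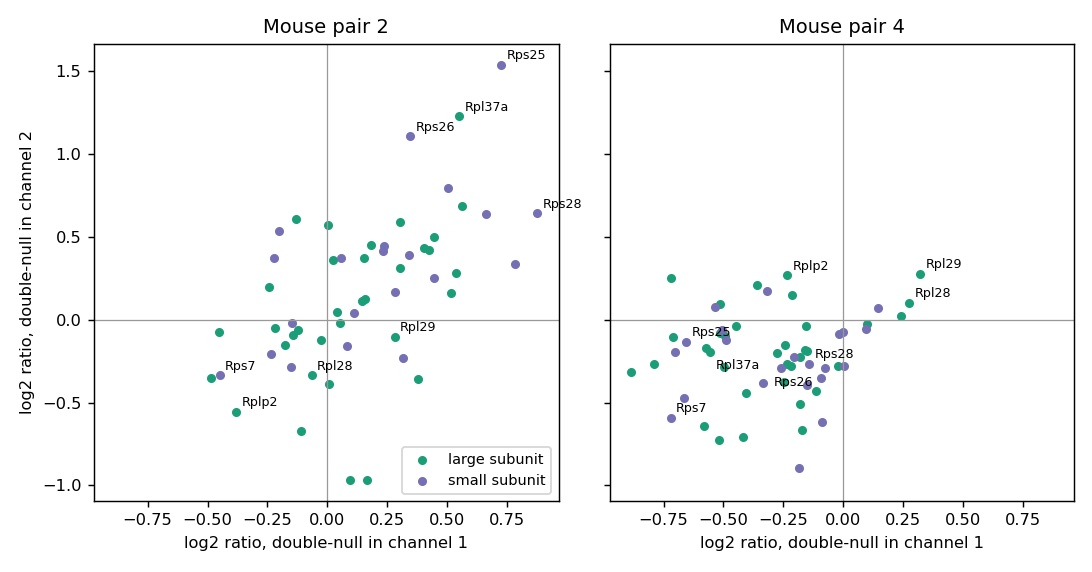
Log2 ratios of ribosomal protein genes on the partner arrays of pair 2 (left) and pair 4 (right), with the double-null RNA in channel 1 on the horizontal and in channel 2 on the vertical axis; green points are large and violet points small subunit genes. In pair 2, 29 of 55 genes lie at the upper right with Rps25 farthest out, and in pair 4, 43 of 57 lie in the lower left. Over all genes, not drawn, these shares were 29.9% and 36.3%.

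A steady difference between channel orientations was tested on the difference between the partner arrays of each pair, and 4.82% of all genes passed at an adjusted p of 0.05. Among the members 1 passed, Rpl15, a large subunit protein (adjusted p = 0.0359 in limma). On arrays whose channel 1 held the double-null RNA it read -0.70, 0.02, -0.44, -0.79 and -0.25 in pairs 1 to 5. On their partners it read 0.52, 0.36, 0.59, -0.27 and 0.22. Its orientation means of -0.43 and 0.29 lay on opposite sides of 0, and the average over orientations was -0.07 ± 0.28 (SD, n = 5). The call was lost without pair 1, without pair 3 and without pair 4.

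Paralogs and related names among the members were set side by side within pairs. Rps27l, a Trp53-induced paralog of Rps27, exceeded Rps27 in all 4 pairs with both values, by 0.82, 0.14, 0.23 and 0.31 (mean 0.37 ± 0.31, SD, n = 4, not tested). Rpl22l1, whose transcript Rpl22 is known to repress, differed from Rpl22 by 0.58 in pair 1 and by -0.41, -0.23 and -0.19 in pairs 2, 3 and 4. The differences Rpl7l1 minus Rpl7 (-0.12 ± 0.45, n = 5) and Rpl36al minus Rpl36a (0.02 ± 0.31, n = 5) took both signs. Rpl13a and Rpl13, and Rpl27a and Rpl27, which are unrelated proteins with like names, differed by -0.01 ± 0.16 and -0.01 ± 0.24 (SD, n = 5). Rpl37a, set beside Rpl37 for its like name only, exceeded that gene in both pairs that measured them, by 0.14 and 0.47. Ribosomal protein genes have many near-identical pseudogenes and close copies, and whether a probe tells them apart is not given.

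In the lists of other translation genes 0 genes were called, where 0.814% of all genes were, a share that would give few or no calls in lists of this size. Of the 66 mitochondrial ribosomal protein genes on the array 45 were tested, with a median log2 ratio of 0.09. Of these, 34 lay above and 11 below 0, where 41.7% of all genes lay above. Their pair medians of 0.50, 0.17, -0.14, 0.00 and -0.07 followed another order than those of the cytosolic genes, with pair 1 highest. The smallest p values in that list were those of Mrpl45 (0.28 ± 0.25, SD, n = 5, adjusted p = 0.526) and Mrps7 (0.33 ± 0.27, n = 4, adjusted p = 0.531).

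Initiation factors, which bring the messenger RNA to the small subunit, had a median of -0.00 over 18 genes, with Eif2b2, a subunit of the exchange factor of eIF2, at -0.25 ± 0.27 (n = 5). Elongation and release factors had a median of -0.03 over 9 genes. Among them Eef1a1, which carries aminoacyl-tRNA to the ribosome and has a pyrimidine tract of its own, read -0.33, -0.60, 0.20, -0.19 and -0.19. The elongation and release factors were lowest in pair 2 (median -0.19, 8 genes with a value), where the ribosomal proteins were highest. In pair 4, where the ribosomal proteins were lowest, their median was 0.05. A list of 11 transcripts known for pyrimidine tracts, 5 of which are also among these initiation and elongation factors, had a median of -0.03. That list had a median of -0.04 in pair 2 and -0.19 in pair 4.

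Ribosome biogenesis factors had a median of -0.06 over 27 genes, 19 of them below 0, where 58.3% of all genes were. In that list there is 1 member, Rpl7l1. The lowest p of the list belonged to Ddx21, a nucleolar helicase (-0.38 ± 0.27, n = 4, adjusted p = 0.498 in limma). RNA polymerase I genes had a median of 0.04 over 8 genes, mTOR and S6 pathway genes -0.03 over 6, and chaperones and factors of the nascent chain -0.09 over 13. Of 7 aminoacyl-tRNA synthetases, 2 had an unadjusted p under 0.05, a level that 9.47% of all genes reached: Iars (-0.33 ± 0.16, n = 5, adjusted p = 0.384) and Nars (-0.31 ± 0.19, n = 5, adjusted p = 0.458), both below 0 in all 5 pairs. The 1 S6 kinase gene on the array had too few values to be tested.

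Marker lists of macrophages, adipocytes, smooth and striated muscle had pair medians over a wider range than the ribosomal genes, and those of endothelial cells, from -0.16 to 0.12, over a narrower one. In pair 2, where members were highest, 6 striated muscle markers had values: Mb, Tnni3 and Myh6 read 2.74, 1.88 and 1.85, whereas Pln, Ryr2 and Tnnt2 read 0.25, 0.13 and -0.14. The list medians in that pair were -0.31 for adipocyte markers, -0.45 for macrophage markers and 0.21 for cell cycle genes. In pair 4, where members were lowest, they were 1.18, -0.50 and 0.01, and that of striated muscle markers was -0.10. The adipocyte markers were higher still in pair 1 (2.23), where the members' median was -0.09. Smooth muscle markers, 7 tested of 9 on the array, read -0.51, -0.36, 0.32, -0.02 and -0.37 in pairs 1 to 5, and 9 endothelial markers had a median of -0.05 over pairs. The part of these differences in the ribosomal ratios was not tested. Log ratios carry no level, so summed marker levels, markers at 0 and the purity of the labelled tissue cannot be read from these values.

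**Figure D4:**
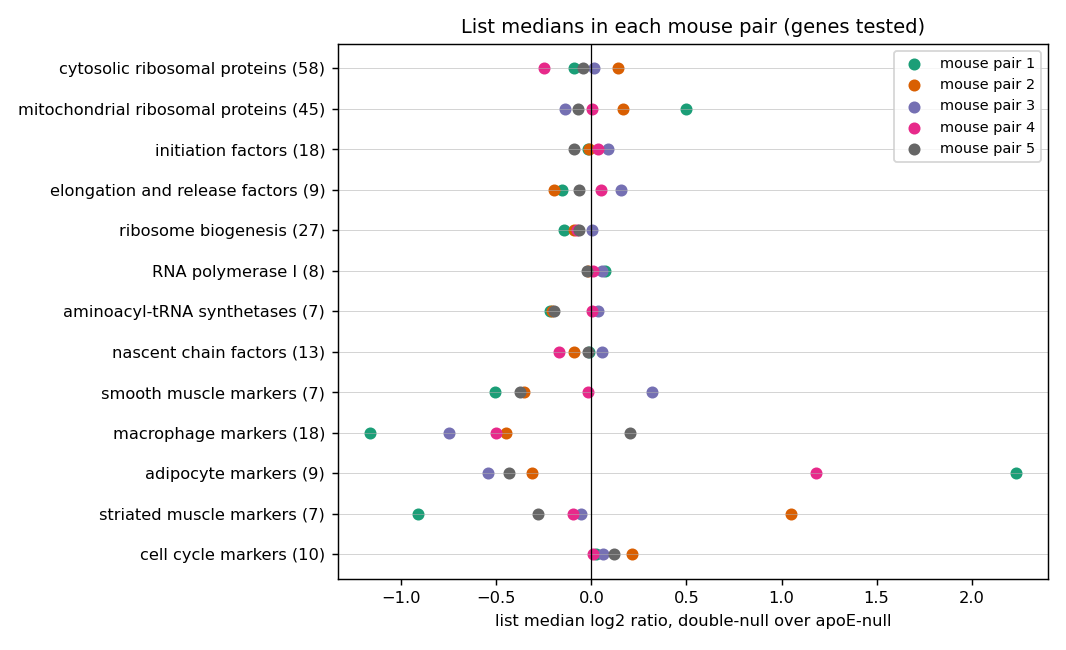
Median log2 ratio (horizontal axis, double-null over apoE-null) of each gene list in each mouse pair, with the number of genes tested in brackets; points are coloured by pair. The cytosolic ribosomal proteins lie between -0.25 (pair 4) and 0.14 (pair 2), a narrower range than that of the macrophage (-1.16 to 0.20), adipocyte (-0.55 to 2.23) and striated muscle markers (-0.91 to 1.05).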

How the data were processed

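Per the labels, aortic arch RNA underwent T7 amplification (MessageAmp) and chemical labelling, and slides were scanned with a GenePix instrument, quantified in GenePix Pro 3.0 and handled in GeneSpring. The values the authors deposited are log2 ratios of apoE-null over double-null, per the titles; they were negated here. The normalization, and why 49.1% to 67.0% of an array's cells are blank, is stated by no label or header read here. The lowest value, -6.64, occurs 10 times and never in a member. Scanner intensities were not analysed here, so the number of arrays limits the precision.

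The 2 arrays of a mouse pair name the same mice and were averaged to 1 replicate. This pairing comes from the mouse numbers in the labels. The channel of each genotype comes from the genotype labels, which in pair 1 disagree between arrays with the mouse numbers. Separate mice are numbered in the labels, and the p-values therefore reflect how mouse pairs vary. Genes of 1 symbol (12143 probes; 49 probes had several symbols, 1680 none) with at least 3 pair values were tested against 0 in R 4.3.3 by limma 3.58.1 (lmFit, eBayes, two-sided test). P-values were adjusted by Benjamini-Hochberg over 4299 genes, with 0.05 as the threshold. The fit was tested on simulated data. Updating symbols by Entrez identifier through RefSeq (GRCm38.p6) changed no member.

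The members and gene lists were chosen with earlier results of these data known. Genes named are those called, the 10 highest and 10 lowest means and the 5 smallest and 5 largest SDs among members with 5 pair values, paralogs, and up to 4 genes of the smallest p in a list. Promoter motifs, window and run length, the cutoffs of 0.25 and 0.5, the 1.5-fold and 2-fold limits and the other names were chosen after the values were seen. Marker lists for lymphocytes (3 tested, median 0.07), fibroblasts (10 tested, median -0.19) and red cells (3 tested, median 1.07) were also read, with 0 genes called in each; 1 macrophage gene, Cd5l, was called lower. A list of further ribosome-associated proteins matched 0 array symbols.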

Additional observations from a re-analysis of the deposited data

Results flagged for a closer look

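In 78 sets of 4 or 5 values, 3 values of ribosomal protein genes lay far from the others of their gene; chance marks about 1 set in 20. Rplp2 read -0.47 in pair 2, against -0.11 to 0.02 in the other pairs. Rps27 read 0.65 in pair 2, against -0.38 to -0.11. Rps19 read 0.30 in pair 5, against -0.05 to 0.02.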

How the results depend on the processing

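Over 23 alternative settings no member and no gene of the translation lists was called. The members' median log2 ratio stayed below 0, between -0.09 and -0.01, within the spread of the pair medians (SD 0.14). The median over all genes was also below 0 in every setting, between -0.06 and -0.01. Members lay lower than all genes without pair 2 (-0.085 against -0.044) and higher without pair 4 (-0.006 against -0.037). Not all settings were separate checks of the members. Updated symbols, removal of the lowest values, the trended and robust prior and a fit on probes could not move a member's mean. Nor could the adjusted p of 0.1, the core genes alone, or rules of 2 or 5 pair values. Leaving out genes with a channel effect could not either. The array-level fits with the pair as a replicate block kept the mean of members with values on all 10 arrays, such as Rpl10 (-0.02). The lowest adjusted p of a member in any setting was 0.168 (Rpl29, channel 1 arrays alone). A member near 0 can change sign without a call: 19 of 58 kept their sign in every setting, Rpl29 among them. The count over all genes, 35, was 63 with the orientation as a covariate and the pair as a replicate block, 99 with the channel 2 arrays alone, 7 where either array sufficed, 0 with a trended and robust prior, 3 without genes that had a channel effect, 62 at an adjusted p of 0.1, and 0 without pairs 2 and 4, added once the pair medians were known. With the pair as a replicate block alone it was 29, which changed no member's call. Leaving out each pair in turn gave 0 to 17 calls over all genes and 0 to 1 members with a channel effect. The trend ran over the mean ratio, since intensities were not used, and every member had 1 probe, so no agreement between probes could be given. The 5 pairs and the blank cells limit the precision, and signal over background cannot be read from ratios.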
